A study of Mus musculus with 8 samples.

Results

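The genes described are those whose symbol begins with Zbtb, Zscan or Zkscan followed by a digit and that hold at least 1 peak of N6-methyladenosine (m6A), a methylated adenosine of RNA, in mouse primary T cells. They were 55 of the 12413 genes with a peak, namely 39 Zbtb, 8 Zscan and 8 Zkscan genes. The annotation names 71 protein-coding genes of this form (41, 19 and 11), and the other 16 were not analysed here. The cells had been treated for 24 h with PTC, an agent that the labels do not describe, or kept as controls. No genotype, strain, age or other agent is labelled for either condition, and neither is the separation of samples into animals or cultures. For each condition 2 samples of m6A-immunoprecipitated RNA and 2 input samples are labelled, which gives 8 samples in 4 groups, and the results are 1 peak list per condition. The PTC list held 23368 peaks in 10859 genes and the control list 29586 peaks in 11390 genes. Because the lists hold no values per sample, no test between conditions was possible and no difference below has a replicate check.

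BTB zinc finger proteins join an N-terminal BTB domain, which forms dimers and binds corepressors, to an array of C2H2 zinc fingers that reads DNA. Several of them direct lymphocyte fate. In SCAN zinc finger proteins the leucine-rich SCAN domain does the pairing, and in Zkscan proteins a KRAB domain, which binds the corepressor TRIM28, may stand beside it. The methyl mark is placed on nascent RNA by METTL3 and METTL14, favours long exons and the neighbourhood of stop codons, and is read by YTH proteins that can shorten the life of the RNA. Its sequence consensus is DRACH, in which D stands for any base but C, R for a purine and H for any base but G, and GGACT is its best known form. Zbtb8os fits the name pattern but encodes no BTB protein, being named for its place on the strand opposite Zbtb8. No C2H2 pattern was found in it, and it is counted throughout.

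The sequences below are shown because they are examples of GGACT sites under the strongest peak of their gene in both lists. They come from some of the most strongly marked of the genes described, from Zbtb7b and from Zbtb38. For each gene the site nearest to the midpoint of the strongest PTC peak was taken, and for Zbtb18 also the one in its array. Zbtb18, Zbtb9, Zscan26 and Zkscan1 hold further such sites. Each is read from the GENCODE M21 transcript on GRCm38, 5′ to 3′ on the strand of the gene, with the consensus in capitals. The first 6 and the last lie in coding sequence and the Zscan26 and Zkscan1 sites in the 3' UTR. The second Zbtb18 site and the Zbtb38 site lie within the zinc finger array. The array is the span from the first to the last finger, with any sequence between fingers, so a site in it need not lie in a finger.
Zbtb18, chr1:177448051-177448071, plus strand: ctgagggaGGACTcggtctta
Zbtb18, chr1:177448383-177448403, plus strand: ccacgagaGGACTcactcggg
Zbtb1, chr12:76386512-76386532, plus strand: agctgtgtGGACTcacaataa
Zbtb9, chr17:26974943-26974963, plus strand: cgccaccgGGACTtatgcaag
Zbtb37, chr1:161032043-161032063, minus strand: tggaaacaGGACTagcagacc
Zbtb7b, chr3:89381225-89381245, minus strand: tgtgagctGGACTttgtaggg
Zscan26, chr13:21444488-21444508, minus strand: aagtggaaGGACTgttttgga
Zkscan1, chr5:138103042-138103062, plus strand: aggttaggGGACTttagcctt
Zbtb38, chr9:96687176-96687196, minus strand: cccacactGGACTtccaagat

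All 55 genes held peaks in both lists, with 0 in the PTC list only and 0 in the control list only. Over all 12413 listed genes, 8.24% were in the PTC list only, 12.5% in the control list only and 79.2% in both. The genes here also held strong peaks: at the strength of their weakest member (−log10 FDR 3.32 in its better list) or above, 88.9% of all listed genes and 91.6% of the protein-coding ones were in both lists. The false discovery rate (FDR) and the fold enrichment are the authors' values per peak, and they describe and rank peaks within a list and do not measure a change between lists. When peaks below a −log10 FDR of 5 were left out, 51 of the 54 remaining genes were in both lists, 1 was in the PTC list only and 2 were in the control list only, against 79.5%, 9.86% and 10.6% of all genes at that threshold. The 1 gene was Zbtb34 (strongest peak 5.95 in the PTC list and 3.57 in the control list), and the 2 were Zbtb12 (1.88 and 5.37) and Zbtb3 (4.09 and 11). Zbtb16 was below the threshold in both lists. When peaks enriched less than 4 times were left out, 51 genes were in both lists and 4 (Zbtb4, Zbtb8os, Zbtb17 and Zbtb34) in the PTC list only, with 0 in the control list only. The background shares at that threshold were 59.4%, 16% and 24.6%. With the control list reduced to the length of the PTC list by FDR, all 55 genes remained in both lists, against 78.8% of all genes, and 13.6% of all genes were then in the PTC list only and 7.53% in the control list only.

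These genes carried more peaks per gene than the rest of the lists, but relative to transcript length the peak numbers were close. They held 167 peaks in the PTC list and 203 in the control list, or 3.04 and 3.69 per gene. All other genes had 2.15 and 2.59 per gene, and those of them in both lists 2.25 and 2.79. These numbers per gene were not scaled by transcript length. The 9927 other protein-coding genes, with 20734 PTC and 26465 control peaks, had principal transcripts of 36052612 nt in sum. For these 55 genes that sum was 283913 nt, so that peak numbers per base of principal transcript were close in both lists. The median fold enrichment of their peaks was 5.33 in the PTC list and 5.14 in the control list, against 3.66 and 3.64 for the peaks of all other genes. Their median width over exon blocks was 360 and 301 nt, against 270 and 268 nt. The genes named Zfp and a number, most of which also encode zinc finger proteins, shared these traits, with 2.61 PTC and 3.11 control peaks per gene, a median fold enrichment of 5.67 and 5.65 and a median width of 359 and 301 nt. The strongest peak of a gene had a median −log10 FDR of 28.9 in the PTC list and 21.9 in the control list, where all other genes in both lists had 16.2 and 15.3 and the Zfp-named genes of each list 14.9 and 10.3. The Zbtb genes had the highest such medians, 38.3 and 29.0, beside 21.5 and 18.9 in Zscan genes and 14.3 and 16.9 in Zkscan genes. The most PTC peaks were held by Zbtb38 (7), followed by Zbtb7a, Zbtb20, Zbtb39, Zbtb40 and Zkscan7 (6 each). The most control peaks were held by Zbtb20 (8), Zbtb41 and Zkscan1 (7 each), followed by Zbtb7a, Zbtb21, Zbtb37 and Zscan29 (6 each). No p-value is given for these contrasts.

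Among the genes described, Zbtb18, a transcriptional repressor known from brain development, had the strongest peak in both lists. The −log10 FDR of this peak was 189 in the PTC list (chr1:177446812-177449327) and 162 in the control list (chr1:177447052-177448668). Among all peaks of each list these ranked 243 and 166. The whole coding sequence of Zbtb18, a single exon of 1569 nt, lay under PTC peaks, and 99.8% of it under control peaks. Zbtb1, which lymphocyte development in mice requires, was the next of these genes in both lists, at 130 and 94.0. Its single coding exon of 2142 nt was covered to 98.7% and 100%. For the PTC list, the other 6 of the 8 strongest members were Zbtb9 (97.9), Zbtb11 (90.5), Zscan26 (82.8), Zbtb37 (78.2), Zbtb7a (68.6) and Zbtb21 (66.9). In the control list the others were Zbtb6 (59.3), Zbtb38 (54.1), Zbtb25 (50.7), Zkscan1 (49.9), Zbtb11 (49.6) and, at the same value of 44.4, Zbtb7a and Zbtb24. Thus 4 genes, Zbtb18, Zbtb1, Zbtb11 and Zbtb7a, stood among the strongest members in both lists. At the weak end, the only peak of Zbtb12 had 1.88 in the PTC list and 5.37 in the control list, and the only peak of Zbtb16 had 2.80 and 3.32.

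**Figure D1:**
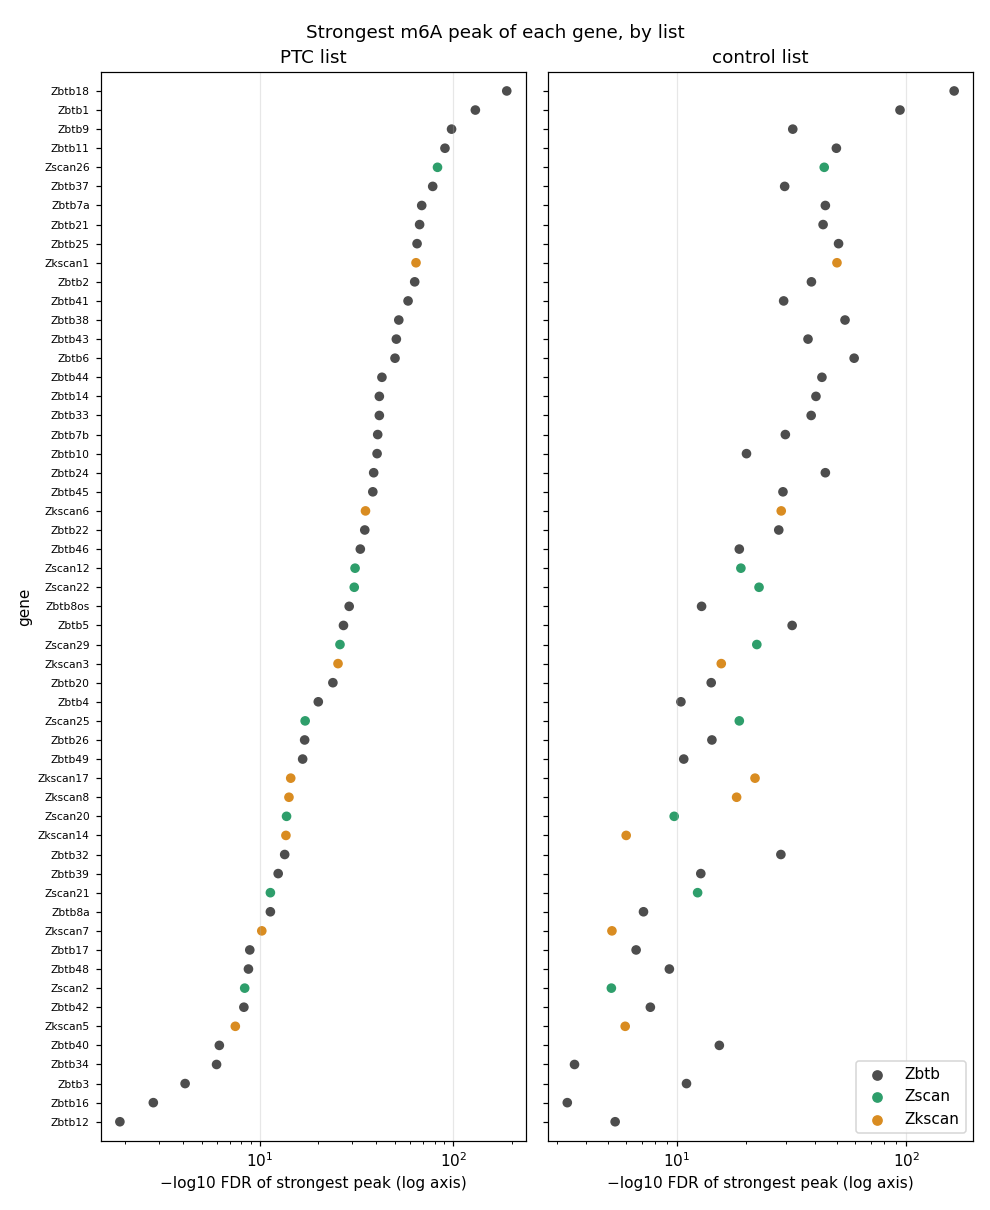
Strongest m6A peak of each of the 55 genes, as −log10 FDR on a log axis, in the PTC list (left) and the control list (right), each point 1 gene coloured by family and genes ordered by the PTC value. Zbtb18 and Zbtb1 are highest in both panels and Zbtb16 and Zbtb12 are among the lowest, and as the values belong to their own list, a shift between panels is not a measured change.

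Among the members with a known part in T cells or other lymphocytes, all 10 were listed in both conditions. Zbtb7b encodes ThPOK, which commits thymocytes to the CD4 lineage. It held 1 PTC peak of 40.6 (chr3:89379318-89385726, over 3 exon blocks) and 2 control peaks, the stronger of 29.7 (chr3:89379198-89385666), and all 1635 nt of its coding sequence lay under peaks in both lists. Its second control peak, of 1.93, lay in the 5' UTR and had no PTC partner. Zbtb7a, also called LRF, a close relative of Zbtb7b, held 6 peaks in each list.

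Zbtb17 encodes Miz-1, a partner of MYC, and held 2 PTC peaks and 4 control peaks, the strongest of 8.84 and 6.63. Zbtb16 encodes PLZF, which natural killer T cells require, and its single peaks overlapped each other in the coding sequence (chr9:48832173-48832471 in the PTC list and chr9:48832292-48832590 in the control list). Zbtb32, a repressor of GATA factors, held 4 PTC and 3 control peaks, the strongest of 13.4 and 28.4. Its coding sequence was covered to 32.6% by PTC peaks and to 73.0% by control peaks, the widest such gap among the 10 genes.

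Zbtb20, known for repressing alpha-fetoprotein in liver, held 6 PTC peaks and 8 control peaks, of which 4 and 5 had their midpoint in its 3' UTR of 23858 nt. Its strongest peaks, of 23.8 and 14.1, overlapped each other around the stop codon. Coverage of its coding sequence was 39.5% in the PTC list and 74.4% in the control list. Zbtb24, whose human gene is mutated in an immunodeficiency with centromeric instability, held 2 and 3 peaks, with 38.7 and 44.4. Zbtb25 held 1 peak in each list, of 64.9 and 50.7, and these shared 93.3% of the bases under either. Zbtb38, which binds methylated CpG, held 7 and 3 peaks, and Zbtb1 held 2 and 5.

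The PTC list, which is shorter, held fewer peaks and fewer marked bases of these genes. Of the 55, 30 held fewer PTC than control peaks, 10 held more and 15 as many, where 41.6%, 16% and 42.4% of the 9836 genes in both lists did. Exon bases under peaks came to 103762 nt in the PTC list and 118022 nt in the control list, of which 88568 nt were shared. They were fewer in the PTC list for 39 genes and more for 13, against 68% and 27.8% of all genes in both lists. Whether these differences lie in methylation, in RNA level or in depth was not tested.

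The largest losses in peak number were those of Zbtb4 (1 PTC and 5 control peaks), Zbtb41 (3 and 7), Zbtb1 (2 and 5), Zkscan1 (4 and 7) and Zbtb21 (3 and 6), the last 3 being tied. In Zbtb4, like Zbtb38 a methyl-CpG binding protein, the single PTC peak (chr11:69778123-69778932, −log10 FDR 20) spanned the whole of the strongest control peak (chr11:69778213-69778662, 10.4). Its 3 control peaks without a partner were of 2.43 to 3.17. For Zbtb1, 3 control peaks of 2.11 to 5.94 in the distal 3' UTR had no partner in the PTC list.

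The largest gains were those of Zbtb38 (7 PTC and 3 control peaks), Zbtb39 (6 and 3), Zbtb40 (6 and 3) and Zkscan14 (5 and 3). All 7 PTC peaks of Zbtb38 overlapped its 3 control peaks, and they covered 4916 nt against 5750 nt in the control list. Zbtb38 thus had more PTC peaks over fewer bases. Zbtb39 was alike, with 2610 and 3208 nt. In Zkscan14, 3 of the 5 PTC peaks had no control partner and the bases under peaks were 1500 and 811 nt.

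Most peaks of these genes shared bases with a peak of the other list. Of the 167 PTC peaks 142 (85.0%, exact Clopper-Pearson 95% interval 78.7 to 90.1) shared at least 1 bp with a control peak, and of the 203 control peaks 140 (69.0%, 62.1 to 75.3) shared one with a PTC peak. The shares for all other genes were 78.8% and 60.1%. Peaks of 1 gene share their RNA, and the intervals cover counting error only. At a −log10 FDR of 5 or more, 97.1% of 102 PTC peaks and 90.8% of 109 control peaks were overlapped by any peak of the other list, and below it 66.2% of 65 and 43.6% of 94. In all other genes these shares were 93.7% and 82.6% at 5 or more and 56.5% and 34.3% below it.

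The 25 PTC and 63 control peaks without a partner were narrow, with median widths of 151 and 181 nt, and 64.0% and 61.9% of them had their midpoint in a 3' UTR. Every gene but Zbtb12 had an overlapping pair, while 5.28% of the 9836 genes in both lists had none. The single PTC peak of Zbtb12 lay at chr17:34895323-34895442, towards the start of the coding sequence, and the single control peak at chr17:34896422-34896629, over the array and the stop codon. Of the bases under either list's peaks the median gene shared 65.1%, and the genes ranged from 0% in Zbtb12 and 30.2% in Zbtb4 to 93.8% in Zbtb22.

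**Figure D2:**
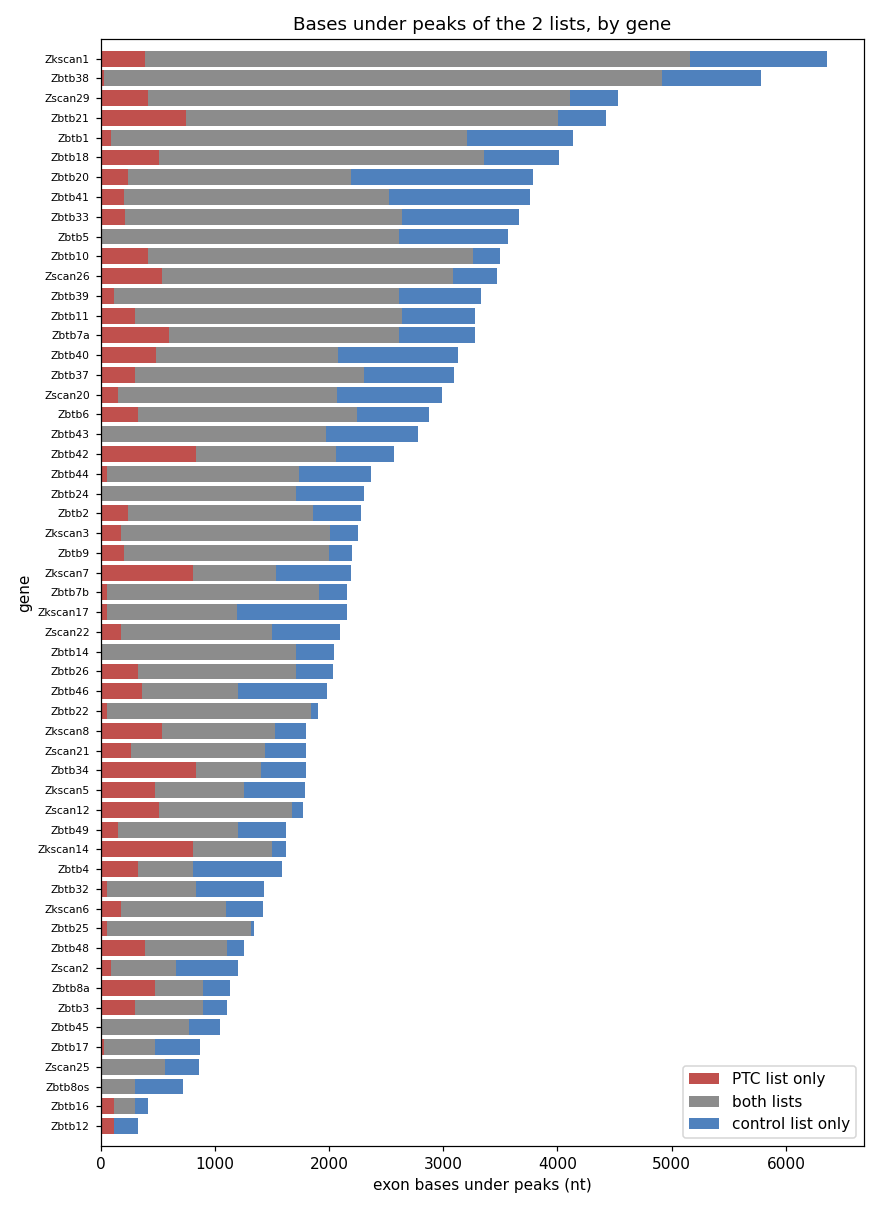
Exon bases under m6A peaks of each gene in nt, split into bases in the PTC list only, in both lists and in the control list only, with genes ordered by their total. The shared stretch is the longest part of most bars, and Zbtb12 has none.

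The peaks lay mainly in coding sequence. Midpoints fell in coding sequence for 59.3% (95% interval 51.4 to 66.8) of PTC peaks and 54.2% (47.1 to 61.2) of control peaks, against 40.8% and 42.0% in all other genes and 59.5% and 53.4% in the Zfp-named genes. The 3' UTR held 38.3% and 39.9%, against 49.1% and 45.5%, and the 5' UTR 1.80% and 3.94%. The strongest peak had its midpoint in coding sequence in 46 of 55 genes in the PTC list and 46 in the control list, and in the 3' UTR in the other 9. The neighbourhood of stop codons, taken as 200 nt to each side, held 16.2% of PTC and 15.3% of control midpoints, against 22.2% and 16.7% elsewhere. Over the principal transcripts, peaks covered 62.8% of coding bases in the PTC list and 66.1% in the control list, where the other protein-coding genes of the lists had 23.2% and 28%. The Zfp-named genes among those had 54.1% and 53.1%. By midpoint, the share of peaks in coding sequence was thus close to that of the Zfp-named genes. Of their 3' UTR bases 20.9% lay under PTC and 26.2% under control peaks, against 25.5% and 31.6% in the other genes. Without Zbtb20 and Zbtb37, whose 3' UTRs are the longest, these shares were 26.1% and 32.6%, so the order turned. By family the 3' UTR was covered to 17.8% and 23.9% in Zbtb, 31.8% and 31.9% in Zscan and 35.3% and 38.4% in Zkscan genes.

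Coding exons of these genes are long. Exons with at least 1000 coding bases held 50.9% of their coding sequence, against 16.3% in the other genes of both lists, and 14 genes had all of it in 1 exon. Within that length class peaks covered 74.0% of coding bases in the PTC list and 77.0% in the control list, and 67.4% and 69.1% in the other genes. In exons of at least 500 and under 1000 coding bases the shares were 81.9% and 79.3%, against 63.4% and 66.0%. In those of at least 200 and under 500 they were 43.9% and 54.9%, against 27.7% and 35.8%. In those under 200 they were 8.26% and 12.8%, against 8.67% and 14.3%. Of the 35 exons with at least 1000 coding bases 34 carried PTC peaks and all 35 control peaks. In the other genes of both lists, 95.6% of such exons carried PTC peaks and 95.8% control peaks. At least 90% of the coding sequence was covered in both lists in 9 genes, among them Zbtb18, Zbtb1, Zbtb7b, Zbtb6, Zbtb33 and Zbtb43. Under 20% was covered in both lists in 3, namely Zbtb12, Zbtb16 and Zbtb40. Zbtb17, whose coding sequence is split over many exons of at most 301 nt, had 15.5% and 31.9%.

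**Figure D3:**
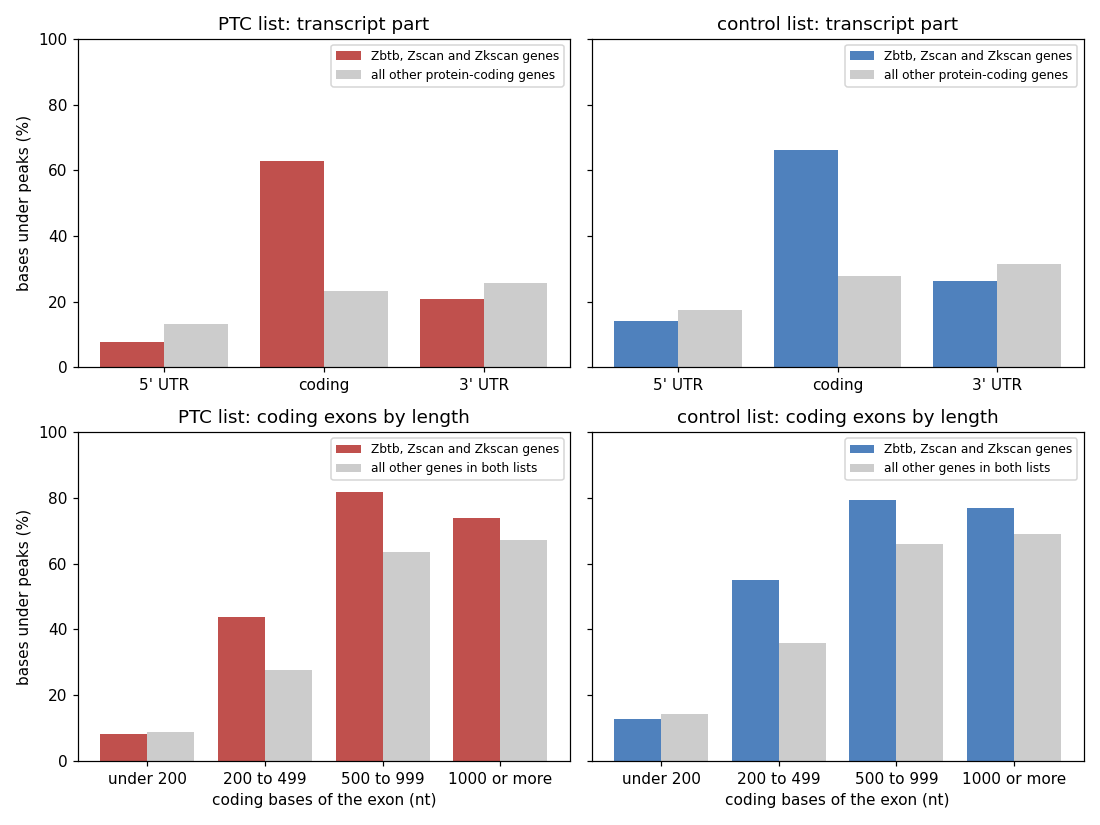
Percent of bases under m6A peaks in the PTC list (left) and the control list (right), by transcript part (top) and by the number of coding bases in an exon (bottom), for the Zbtb, Zscan and Zkscan genes in colour and for other genes in grey. Coding sequence of the coloured set reaches 62.8% in the PTC list and 66.1% in the control list, and within exon length classes both sets are most covered in exons of 500 coding bases or more.

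Coverage of the zinc finger array is given here for each of the 3 families. In 54 genes 309 C2H2 fingers were found in the translated principal transcript, from 1 to 14 per gene with a median of 5, and the array from the first to the last finger made up 30.4% of their coding sequence. Of the coding bases under peaks, 28.5% in the PTC list and 29.5% in the control list lay in the array. In Zbtb genes peaks covered 53.6% of array bases and 68.5% of the remaining coding bases in the PTC list, and 57.3% and 70.7% in the control list. That order belongs to the summed bases, since the median Zbtb gene had 82.4% of its array and 79.2% of the remainder covered in the PTC list, and 74.3% and 79.1% in the control list. In Zscan genes the summed shares for array and remainder were 71.9% and 63.6% in the PTC list and 86.8% and 70.0% in the control list. In Zkscan genes the array was covered to 67.0% against 43.7% for the remainder in the PTC list, and to 68.9% against 41.9% in the control list.

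Counted by gene, the array was more covered than the remainder in 18 of 38 Zbtb, 7 of 8 Zscan and 7 of 8 Zkscan genes in the PTC list, and in 16, 7 and 8 in the control list. It was less covered in 16 Zbtb genes in the PTC list and 17 in the control list, and equally covered in the other Zbtb genes. The exception among Zscan genes was Zscan2, with 14 fingers, in both lists. Arrays without any peak were found in 7 genes in the PTC list and 4 in the control list, and Zbtb16, Zbtb40, Zbtb46 and Zbtb8a were in both sets. Zbtb44, Zbtb12 and Zbtb32 had no PTC peak over the array, while control peaks covered 47.7%, 42.6% and 38.2% of it. With so few Zscan and Zkscan genes the family contrast is a description, and it was not tested.

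**Figure D4:**
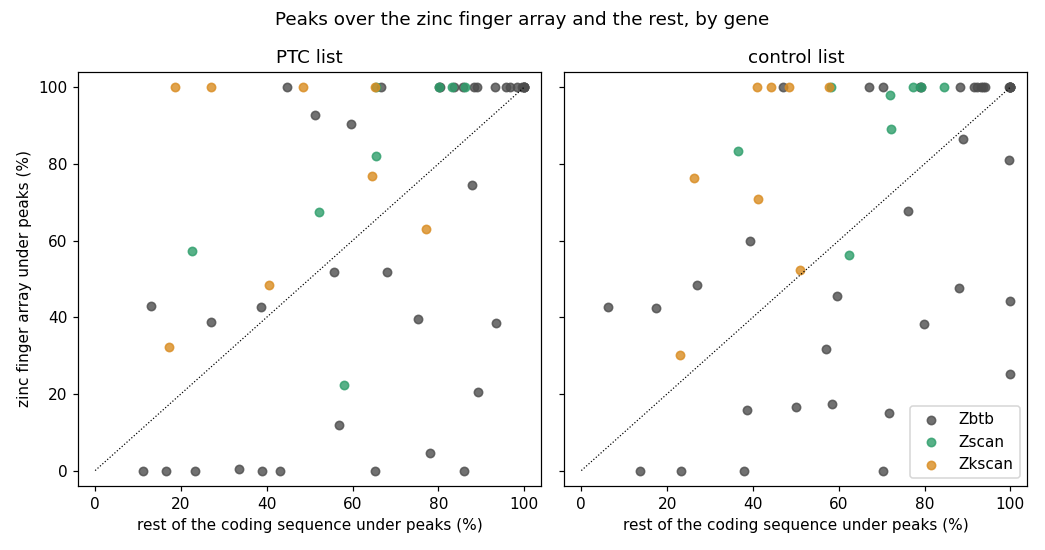
Percent of the zinc finger array under peaks (vertical axis) against percent of the remaining coding sequence under peaks (horizontal axis) in the PTC list (left) and the control list (right), each point 1 of 54 genes coloured by family, with equality as a dotted line. Zscan and Zkscan genes lie mostly above the line, 14 of 16 in the PTC list, while Zbtb genes lie on both sides.

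**Figure D5:**
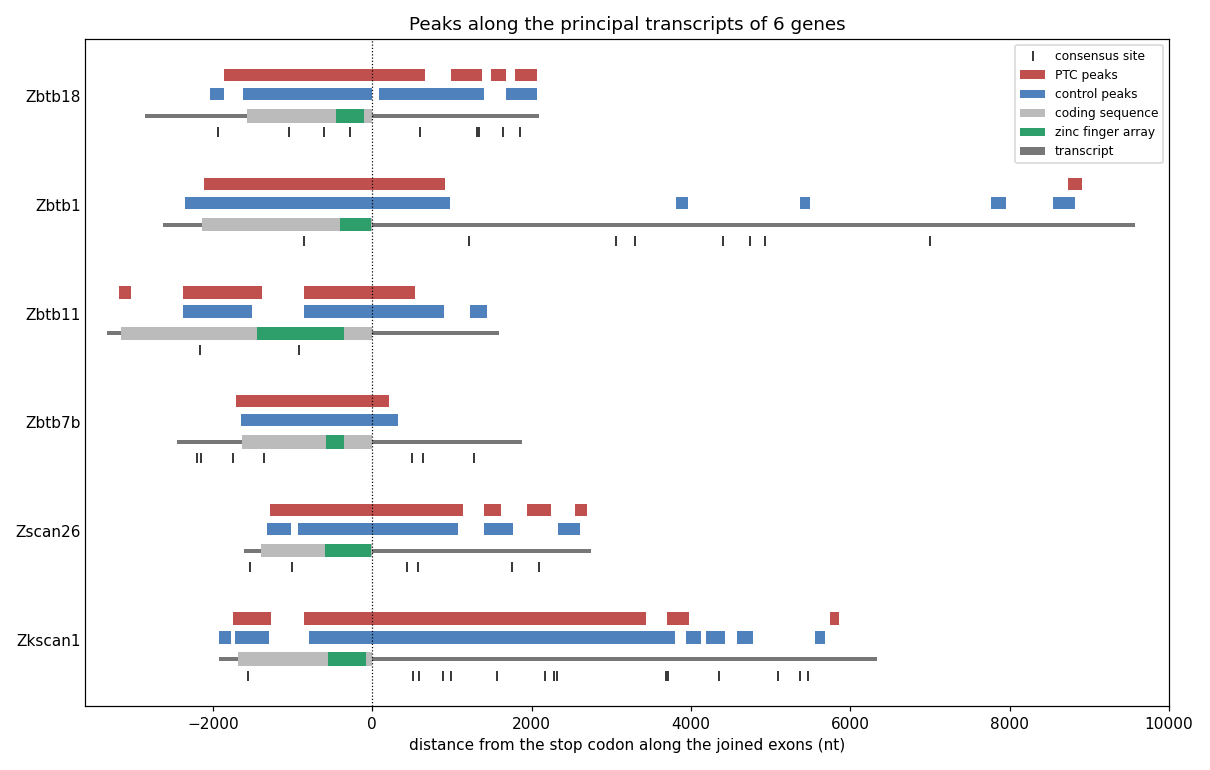
Peaks of the PTC list (red) and the control list (blue) along the principal transcripts of 6 genes, by distance from the stop codon in nt, with coding sequence in light grey, the zinc finger array in green and consensus GGACT sites as ticks. The main peaks run over the coding sequence of Zbtb18, Zbtb1 and Zbtb7b and on into the 3' UTR in the PTC list, and those of Zscan26 and Zkscan1 begin before the array, cover it and run on into the 3' UTR.

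The 54 genes with a GGACT in the principal transcript held 277 sites. Of these, 124 lay under PTC peaks, 139 under control peaks and 108 (39.0%) under both, with 122 under neither. In coding sequence 82 of 112 sites (73.2%) were covered in each list. Of all coding bases of these genes 62.8% and 66.1% lay under PTC and control peaks. The other protein-coding genes had 26.3% and 30.5% of their coding sites covered. In the 3' UTR 42 of 143 (29.4%) were covered in the PTC list and 53 (37.1%) in the control list. Those shares were 36.6% and 41.0% in the other protein-coding genes. With Zbtb20 and Zbtb37 left out, a choice made after seeing the data, 110 such sites remained. Of these, 36.4% were covered in the PTC list and 44.5% in the control list. Coverage was then close to that of the other protein-coding genes in the PTC list and above it in the control list. The strongest peak contained a GGACT in 34 genes in the PTC list and 36 in the control list, among them the genes whose sites are printed above. In windows of 101 nt around the midpoints, GGACT stood in 15.6% of PTC peaks and 11.3% of control peaks, against 12.9% and 11.5% of the peaks of all other genes. Windows of that length over all positions of the transcripts held it in 9.12% for these genes and 9.87% for the other genes. DRACH, which is frequent, stood in 88.6% and 90.6% of the peak windows and in 84.8% of all windows of these transcripts. Only the strand of the transcript was searched, and every GGACT is also a DRACH. A match is a description of the sequence and does not place a methylated base.

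A repeated element of these transcripts is the conserved linker that joins neighbouring fingers, whose 15 coding bases can hold the DRACH form AAACC. A total of 95 such linkers were found in 31 genes, 27 of them with a DRACH (28.4%). Of all in-frame runs of 15 coding bases in the 54 genes with an array, with or without such a linker, 20.3% held one. AAACC itself stood in 24. Linkers lay under peaks in 51 cases in the PTC list, in 61 in the control list and in 48 in both. Of the 27 with a DRACH, 15 were covered in both lists. The linkers below are examples covered in both, shown because arrays repeat this sequence with small changes, read from GENCODE M21 on GRCm38 with AAACC in capitals.
Zkscan1, chr5:138100988-138101002, plus strand: actggagagAAACCc
Zscan12, chr13:21368965-21368979, plus strand: actggagagAAACCg
Zscan26, chr13:21445357-21445371, minus strand: actggagaaAAACCc
Zkscan8, chr13:21520691-21520705, minus strand: actggagagAAACCc

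Related genes with other names were also listed in both conditions. Of 8 BTB zinc finger genes 7 held peaks, all 7 in both lists, with Zfp131 (107 in the PTC list and 87.3 in the control list) and Patz1 (68.1 and 53.8) strongest. Bcl6, the repressor that directs follicular helper T cells, had strongest peaks of 2.98 and 12.3. Of 11 SCAN genes 10 were matched to the annotation and 8 held peaks, again all in both lists, from 2.75 and 3.59 in Zfp444, whose single peaks did not overlap, to 92.8 and 71.7 in Zfp263.

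Markers of the labelled cell type were listed, with all 10 T cell genes in both lists. So were 4 of 5 B cell and 4 of 5 myeloid markers, among them Ms4a1 (134 in the PTC list and 217 in the control list) and S100a8 (112 and 31.1), while Cd79a and Itgam held no peak. Of 3 natural killer markers Klrb1c was in both lists and Ncr1 in the control list only. The part of such cells in the peaks above was not tested. A peak needs RNA, and fewer cells of a type and less RNA per cell cannot be told apart in bulk samples. Exons of another annotated gene underlay 13 of the 167 PTC peaks and 15 of the 203 control peaks. Among them were every peak of Zbtb9 in both lists (Ggnbp1, same strand) and the strongest peaks of Zbtb11 (Pcnp, opposite strand) and Zscan26. The strongest control peaks of Zbtb8a (Zbtb8os, opposite strand) and Zscan29 (Tubgcp4, opposite strand) were also among them. The single PTC peak of Zbtb12, which overlapped no control peak, also lay over exons of another gene (C2, opposite strand). Whether reads were assigned by strand, and how reads shared by similar zinc finger arrays were treated, is not given in the sources used here.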

How the data were processed

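m6A peaks of primary T cells, PTC-treated or control, were taken from 2 deposited lists, 1 per condition. Per the submitters' processing notes, BWA 0.7.12, MACS2 2.1.0 and GRCm39 were used, with no role given. What the caller and its threshold were, and whether samples were pooled, was not given in the sources used here. Per the file headers each peak carries the authors' fold enrichment (a linear ratio), p-value, FDR and their logarithms, which were treated as a score. The deposited p-value and its logarithm matched within 0.02 on the log10 scale. No counts per sample were used, so depth is unknown, a planned count test was not run, and 0 columns of per-sample values were left aside.

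Positions match GENCODE M21 (GRCm38), where 99.8% of PTC and 99.8% of control peaks and all 370 peaks of these genes lie inside their own gene. Starts were converted to count from 1. A peak's region is that of the midpoint of its joined exon blocks, over all coding transcripts, and stop codon distances are to the nearest annotated stop. Lists were compared over exon blocks on the same strand, with at least 1 bp shared. Coverage of transcript parts, the GGACT sites and the finger searches used 1 principal transcript per gene. Exon bases under peaks of a gene were counted over the exons of all its transcripts. Motif windows at midpoints used the most preferred transcript with the midpoint in an exon, and whole-peak motif searches used all transcripts. All were run in Python 3.11.15 with pandas 2.3.3 and scipy 1.17.1, and tested on simulated data. Alternatives were stricter FDR and fold thresholds, equal list lengths, other overlap rules, a narrower stop window, whole-peak motif search and another definition of the array.

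Named genes were the 8 strongest members in each list, those in 1 list only under a threshold and the 4 with the most peaks. The 4 largest gains and losses (ties kept), the T cell list and Zbtb8os were also named. Zbtb22, Zbtb33, Zbtb43, Zbtb44, Zbtb46, Zbtb8a, Zscan2, Zscan12 and Zkscan8 were named after their values were seen. Members and lists were chosen with earlier results of these data known.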

Additional observations from a re-analysis of the deposited data

How the results depend on the processing

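Of 55 values recomputed under another setting, 33 stayed within the counting interval of the main value (for counts of genes, within 1.5 times). The other 22 were counted as moved. Among these is the 3' UTR coverage without Zbtb20 and Zbtb37, which has no interval and was judged by no rule. The array values are shares of bases, and their intervals took the number of peaks as the count, so they are approximate. At a −log10 FDR of at least 5, 1 gene was in the PTC list only and 2 in the control list only, 26.5% of PTC and 31.2% of control midpoints lay in 3' UTRs, and 80.7% of control peaks were overlapped. At a fold enrichment of at least 4, 4 genes were in the PTC list only, 77.2% of PTC peaks were overlapped, and 28.9% of PTC and 32.3% of control midpoints lay in 3' UTRs. With lists of equal length 77.9% of control peaks were overlapped. Asking for 50% of each peak left 52.1% of PTC and 42.9% of control peaks overlapped, and midpoints within 100 bp left 41.9% and 34.5%. A stop codon window of 100 nt to each side held 6.59% of PTC and 9.85% of control midpoints. GGACT anywhere in a peak was found in 47.3% of PTC and 41.4% of control peaks. With the span of the linkers as the array, its part of coding bases under peaks was 13.1% in the PTC and 14.4% in the control list. That setting covers only the 31 genes with a linker, and the part of their coding sequence within the span is not given. Leaving out Zbtb20 and Zbtb37, chosen after seeing the data, gave 26.1% of 3' UTR bases under PTC peaks and 32.6% under control peaks. By construction stricter thresholds leave fewer peaks and wider windows hold more motifs. The PTC list, being the shorter, was unchanged when list lengths were made equal. Its 3' UTR, stop codon, GGACT and array values under that setting could not move, and they count among the 33. No paired analysis was possible because the lists hold no values per sample and the sample numbers are not shared between conditions, and for the same reason no sample could be left out.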
